A study of Mus musculus with 4 samples.

Results

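Krt5, Krt14 and Krt15, the keratin genes of the basal epidermal layer and of the hair follicle bulge, were examined by RNA-seq in hair follicle stem cells (HFSCs) after short and long culture. They were taken by gene symbol, and each of the 3 symbols was found once among the 24346 gene symbols listed in every library. HFSCs were cells positive for CD34 and CD49f (the α6 integrin), sorted from dorsal skin of C3H/HeN mice that were 4 weeks old, and grown in the serum-free medium M-CnT with weekly passages and no further treatment. Polyadenylated RNA was sequenced after 10 passages (10p-HFSCs) in 2 libraries and after 48 passages (48p-HFSCs) in 2 libraries. Both groups share strain, sort and medium and differ in the number of passages. The sources used here do not say whether replicates were separate cultures or mice, so that p-values measure only the spread between these libraries, which may be technical.

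Keratins are intermediate filament proteins that form filaments as pairs of a type I and a type II chain. Krt5 is the type II keratin and Krt14 its type I partner in the dividing basal cells of the epidermis and the outer root sheath, where their filaments are anchored to hemidesmosomes and desmosomes. Krt15 is a second type I keratin of basal cells, widely used as a marker of the bulge, where hair follicle stem cells reside. When keratinocytes leave the basal layer, Krt5 and Krt14 are normally replaced by Krt1 and Krt10.

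Expression is given as FPKM, a count of fragments scaled to the length of the transcript and to the size of the library, so that levels can be compared between genes. Groups were compared with limma on the log2(FPKM + 1) scale for the 11018 genes that reached an FPKM of 1 in 2 or more libraries, and a gene was called at an adjusted p-value under 0.05 with a log2 difference of at least 1. The summed FPKM ranged from 581516 to 719012 in 10p-HFSCs and was 666018 and 1414950 in 48p-HFSCs, the higher sum being that of replicate 2. Estimated from the steps between low values, the depth of this library was 46.7% of that of replicate 1 of 10p-HFSCs. This estimate equals read depth only if the values were not scaled across libraries, which is not known. Pearson's r across tested genes was 0.981 between the 10p-HFSC libraries and 0.950 between the 48p-HFSC libraries.

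The label of the cells was checked against marker genes. The transcript of the sorting marker Cd34 was at an FPKM of 0.0925 to 0.234 in the 4 libraries. The paper instead reported most cells as immunopositive for CD34 at both passages, and expression of Cd34 by qRT-PCR as maintained. The reason for this difference was not tested, so the low RNA-seq values do not show that the cells lacked CD34. In the RNA-seq values the bulge regulators Lhx2, Nfatc1 and Tcf7l1 and the stem cell receptor Lgr5 were at an FPKM of 0.0671 or less. Of the 16 bulge markers listed, 9 stayed below an FPKM of 1 in all libraries. Among the rest, Col17a1 was at 274 and 209, Sox9 at 45.6 and 44.2 and Lrig1 at 23.5 and 19.6 after 10 passages. Itga6, which encodes the other sorting marker, was at 20.8 or more in every library. In bulk RNA, fewer cells expressing a gene and less RNA per cell cannot be told apart.

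Keratin genes are similar in sequence, and a read can fall on stretches that several of them share. Krt5 lies on chromosome 15 from 101707070 to 101712898 on the minus strand (mm10, GENCODE M21), with 9 exons and a transcript of 2197 bases. Krt14 lies on chromosome 11 from 100203162 to 100207548 and Krt15 on the same chromosome from 100131758 to 100135928, both on the minus strand with 8 exons. Their transcripts were of 1698 and 1700 bases. Of the stretches of read length in each transcript, 77 of 2097 in Krt5 occurred unchanged in transcripts of another gene (Krt6a, Gm44323 or Gm5478), 44 of 1598 in Krt14 (all in Krt16) and 0 of 1600 in Krt15. The following coding windows of read length are those where each gene is most like another keratin, since a read from there cannot be placed, or is hard to place, by its sequence. The window of Krt5, coding bases 307 to 407, is identical to bases 277 to 377 of Krt6a. The window of Krt14, coding bases 171 to 271, is identical to the same bases of Krt16. Krt15 had no such window. Its closest match was Krt17, with 4 differing bases, which are in capitals.
Krt5 and Krt6a: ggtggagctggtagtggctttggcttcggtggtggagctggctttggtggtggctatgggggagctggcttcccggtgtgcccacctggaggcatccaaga
Krt14 and Krt16: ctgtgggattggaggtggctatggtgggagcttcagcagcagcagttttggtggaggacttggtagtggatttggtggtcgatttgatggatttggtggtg
Krt15, coding bases 301 to 401: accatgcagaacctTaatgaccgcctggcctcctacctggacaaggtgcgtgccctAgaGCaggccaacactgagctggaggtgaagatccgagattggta
Krt17, coding bases 259 to 359: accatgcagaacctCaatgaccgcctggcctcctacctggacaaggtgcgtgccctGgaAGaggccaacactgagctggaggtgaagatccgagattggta
When 2 differing bases were allowed, 7.49% of the coding windows of Krt5, 19.6% of those of Krt14 and 0 of 1271 of those of Krt15 matched another keratin. For Krt14 these were 173 windows shared with Krt16, 53 with Krt17 and 40 with Krt42, out of 1355. How reads with several possible places were counted is not given in the sources used here, and its part in the levels of Krt5 and Krt14 was not tested. The level of the similar genes differed between passages. Krt17 stood at 0.0210% and 0.0257% of the FPKM of Krt14 after 10 passages, against 175% and 186% after 48, and Krt16 at 0.630% and 0.749% against 6.97% and 3.59%. Krt6a stood at 10.7% and 13.7% of the FPKM of Krt5 after 10 passages, against 7.88% and 4.24% after 48.

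Krt5 and Krt14 were among the most abundant transcripts at both passages, and both were higher in the 48p-HFSC libraries, although neither passed the test. In every library Krt5 was the highest of the 3 keratins and Krt15 the lowest, and within each passage the libraries' values of Krt5 lay above those of Krt14 without overlap. The FPKM of Krt5 was 1805 (replicate 1) and 1473 (replicate 2) at 10 passages, and 8156 (replicate 1) and 5120 (replicate 2) at 48 passages. The groups did not overlap, and the lower 48p-HFSC library was 2.84-fold above the higher 10p-HFSC library. The means were 1639 ± 235 (SD, n = 2) and 6638 ± 2146 (SD, n = 2), a 4.05-fold difference. On the log2(FPKM + 1) scale the difference was 1.99 with a standard error of 0.93 (limma adjusted p = 0.181). Krt5 ranked 61st and 94th among all genes in 10p-HFSCs, and 2nd and 73rd in 48p-HFSCs.

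The FPKM of Krt14 was 1423 (replicate 1) and 1217 (replicate 2) at 10 passages, and 3896 (replicate 1) and 2439 (replicate 2) at 48 passages. Here too the groups did not overlap, with the lower 48p-HFSC library 1.71-fold above the higher 10p-HFSC library. The means were 1320 ± 145 (SD, n = 2) and 3168 ± 1030 (SD, n = 2), a 2.40-fold difference. The log2 difference was 1.23 with a standard error of 0.75 (limma adjusted p = 0.282). Of the 3 keratins 0 were called, against 19.9% of all tested genes called in either direction, 10.8% being called higher. At an unadjusted limma p under 0.05 they were also 0 of 3, against 37.4% of all tested genes. By comparison, 31.7% of tested genes had both 48p-HFSC libraries above both 10p-HFSC libraries, as Krt5 and Krt14 did, and 34.3% had both below, as 0 of the 3 keratins did.

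**Figure D1:**
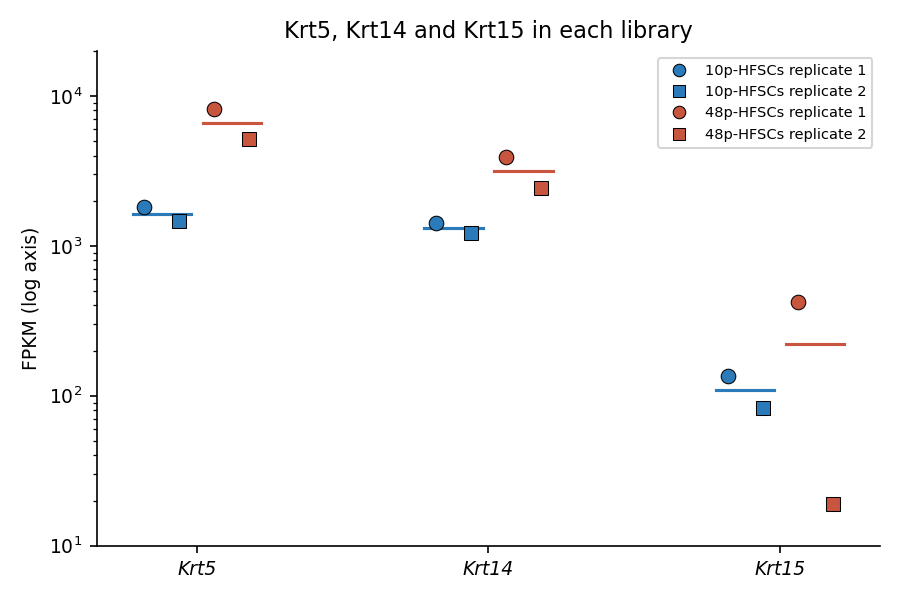
FPKM of Krt5, Krt14 and Krt15 (log axis) in each library. Circles are replicate 1, squares replicate 2, and horizontal lines the group means (n = 2). Krt5 and Krt14 lie higher in both 48p-HFSC libraries, while Krt15 is at 424.8 in one and at 18.8 in the other.

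The spread that limma assigned to Krt5 and Krt14 was wider than their own. The residual SD of Krt5 was 0.37 on the log2 scale and that of Krt14 was 0.36, whereas the variance trend gave SDs of 1.12 and 0.89 for genes of their level. At that level most genes differed more between the 48p-HFSC libraries. Of 112 genes with a mean log2(FPKM + 1) of at least 10, 110 were higher in replicate 2 than in replicate 1 of 48p-HFSCs, by a median of 1.497 over the 112 genes. The 2 exceptions were Krt5 and Krt14, which were lower in replicate 2. None of the 112 genes was called by limma, and 1 had an unadjusted p under 0.05. With a constant variance prior in limma, 1 of the 112 genes was called and 16 had an unadjusted p under 0.05. After rescaling to TPM these numbers were 11 and 35, and after quantile normalization 10 and 44. With the constant prior Krt5 was called (adjusted p = 0.0162), and Krt14 was just outside the threshold (adjusted p = 0.0542).

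The difference in Krt14 was smaller relative to the whole library. It made up 0.245% and 0.169% of the summed FPKM at 10 passages, against 0.585% and 0.172% at 48 passages, so that replicate 2 of 48p-HFSCs fell between the 10p-HFSC libraries. Krt5 made up 0.310% and 0.205% at 10 passages, against 1.22% and 0.362% at 48 passages, without overlap. After rescaling to TPM, which moved the median of all tested genes to -0.55, the log2 differences were 1.40 for Krt5 (limma adjusted p = 0.0385) and 0.64 for Krt14 (adjusted p = 0.325). Relative to that median they were 1.95 and 1.19, close to the 2.02 and 1.26 found relative to the median of -0.03 without rescaling. The limma standard error of Krt5 was 0.42 after rescaling, against 0.93 without. Yet the 48p-HFSC libraries differed by a larger fold in its share than in its FPKM.

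The balance between Krt5 and its partner is a ratio within each library and is free of library scaling. Krt5 stood at 1.27 and 1.21 times the FPKM of Krt14 after 10 passages, and at 2.093 and 2.099 times after 48. Replicates of 48p-HFSCs thus agreed within 0.0042 on the log2 scale, although both genes differed by 1.59-fold and 1.60-fold between them. The ratio was 1.69-fold higher in 48p-HFSCs, a log2 difference of 0.76, which exceeded the gaps of 0.069 and 0.0042 between replicates. The exact permutation test gave p = 0.333, two-sided, the smallest value that 2 libraries against 2 allow.

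**Figure D2:**
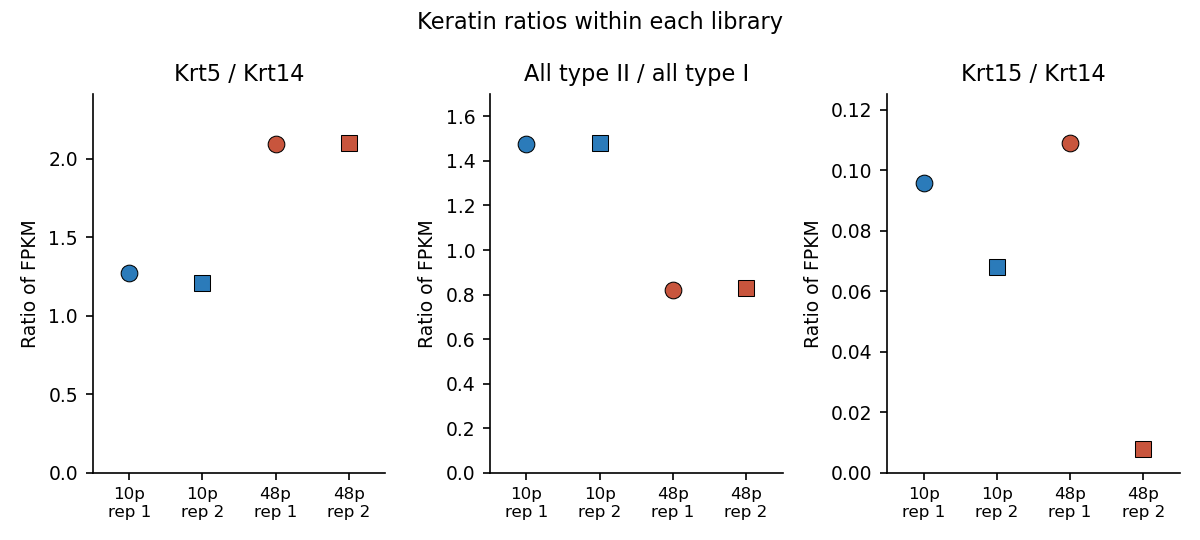
Ratios of FPKM within each library, for Krt5 to Krt14 (left), all type II to all type I keratins (middle) and Krt15 to Krt14 (right). Each point is a library. The left and middle ratios differ between passages and hardly between replicates, while Krt15 to Krt14 falls to 0.00772 in replicate 2 of 48p-HFSCs.

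Summed over all keratins the balance went the other way. Type II keratins summed to 1.48 and 1.48 times the FPKM of type I keratins after 10 passages, and to 0.820 and 0.831 times after 48 (exact permutation test, p = 0.333, the smallest possible). Krt17, a keratin of the outer root sheath and of wounded epidermis, made up 0.0185% and 0.0231% of type I FPKM after 10 passages, against 57.2% and 54.9% after 48. With Krt17 left out of the sum, the ratio was 1.48 and 1.48 after 10 passages, against 1.91 and 1.84 after 48. Krt14 made up 88.0% and 89.7% of type I FPKM after 10 passages, against 32.7% and 29.5% after 48. Krt5 remained the main type II keratin throughout, at 75.6% and 73.3% of type II FPKM after 10 passages, against 83.4% and 74.6% after 48.

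By qRT-PCR the paper reported expression of Krt15 as maintained during long culture. In the RNA-seq values Krt15 was lower than Krt5 and Krt14 in every library. No difference between passages could be shown for it, with the 48p-HFSC libraries on opposite sides of the 10p-HFSC libraries. With that spread, the RNA-seq values cannot decide whether the level of Krt15 was maintained. Its FPKM was 136.1 (replicate 1) and 82.6 (replicate 2) at 10 passages, and 424.8 (replicate 1) and 18.8 (replicate 2) at 48 passages. Replicate 1 of 48p-HFSCs lay above both 10p-HFSC libraries and replicate 2 below both. Against the mean of 10p-HFSCs, replicate 1 was 3.88-fold higher and replicate 2 was 5.81-fold lower. The means were 109 ± 37.8 (SD, n = 2) and 222 ± 287 (SD, n = 2), so that the mean FPKM was 2.03-fold higher in 48p-HFSCs while the log2 difference was -0.22 (standard error 1.33, limma adjusted p = 0.918). Without replicate 2 of 48p-HFSCs the log2 difference was 1.99 (limma adjusted p = 0.0559), and without replicate 1 it was -2.43 (adjusted p = 0.0236), each from a fit that takes the lone library to vary like the other group. As a share of Krt14, Krt15 stood at 9.56% and 6.79% after 10 passages, against 10.9% and 0.772% after 48 (exact permutation test of the log2 ratio, p = 1).

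The gap between the 48p-HFSC libraries was far wider for Krt15 than for most genes. Replicate 1 exceeded replicate 2 by 22.6-fold, or 4.42 on the log2(FPKM + 1) scale, against a median absolute gap of 0.47 over the tested genes. Only 6 of the 11018 tested genes had a wider gap. These were Snora64, Snora31, Gm12669, Snord16a, Mir546 and Mir6244, named after their values were seen, all of them with a shorter annotated transcript (99 to 1009 bases) and each at an FPKM of 0 in one of the 48p-HFSC libraries. Among the 200 genes nearest to Krt15 in their 48p-HFSC level, 0 had a wider gap. In 10p-HFSCs the gap of Krt15 was 0.71, wider than that of 94.7% of tested genes and in the same direction, with replicate 1 higher. For Krt5 and Krt14 the gaps were 0.29 and 0.23 after 10 passages, against 0.67 and 0.68 after 48.

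Part of the difference between replicates followed transcript length. Among tested genes with transcripts of 1000 to 2000 bases, which include Krt14 and Krt15, the median of replicate 2 minus replicate 1 was 0.19 after 10 passages and 0.36 after 48, and among those of 2000 to 3000 bases, which include Krt5, it was 0.05 and 0.08. The 3 keratins were thus lower in replicate 2 of both groups, against the direction of their length class. With each library corrected for transcript length and GC content, the log2 differences between passages were 1.81 for Krt5 (limma adjusted p = 0.0589), 0.89 for Krt14 (adjusted p = 0.243) and -0.56 for Krt15 (adjusted p = 0.791).

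**Figure D3:**
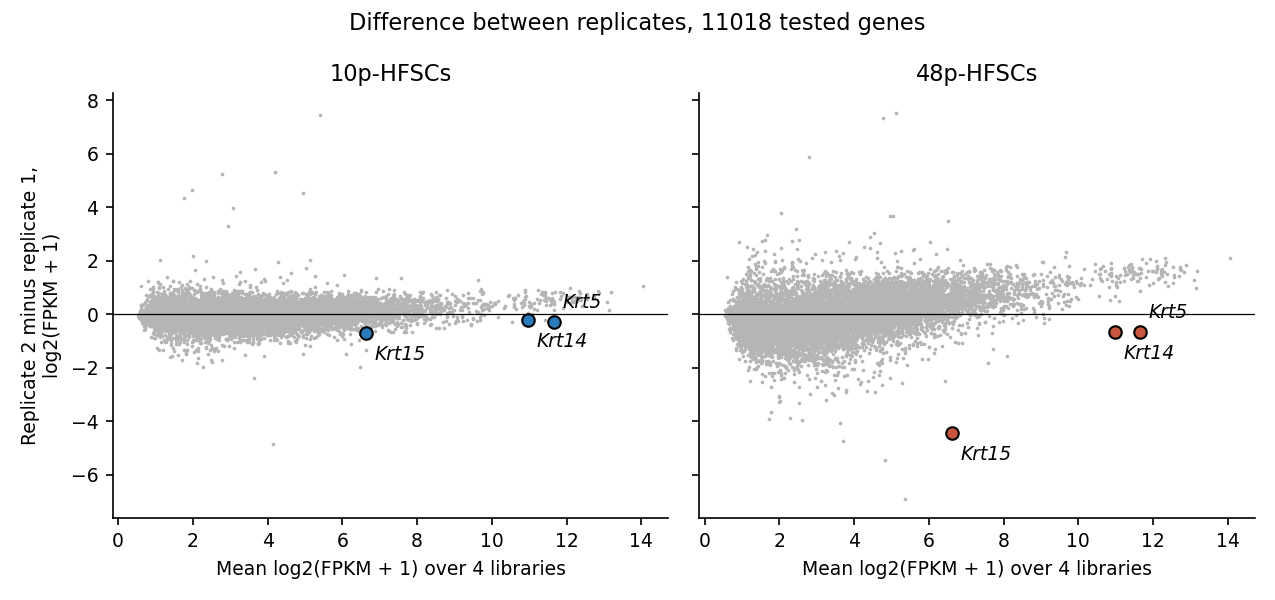
Replicate 2 minus replicate 1 on the log2(FPKM + 1) scale against the mean level over the 4 libraries, for 10p-HFSCs (left) and 48p-HFSCs (right). Grey points are the 11018 tested genes. Krt15 lies at -4.42 in 48p-HFSCs, and Krt5 and Krt14 lie below the other abundant genes.

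Other keratins were compared for context. Of 52 keratin genes of types I and II listed, 17 were tested. After 48 passages 4 of these were higher and 2 lower by the call used here, against 10.8% and 9.15% of all tested genes. Without replicate 2 of 10p-HFSCs 3 keratins were called, and without replicate 1 of 48p-HFSCs 11 were. The median log2 difference of the 17 genes was 0.83, against -0.03 over all tested genes. Called higher were Krt16 and Krt17, keratins of wounded and hyperproliferative epidermis, and Krt18 and Krt19, keratins of simple epithelia and, for Krt19, also of the bulge. Krt19 rose from 14.2 and 12.1 to 154.7 and 48.8, a log2 difference of 2.64 (limma adjusted p = 0.0232), and Krt16 from 8.97 and 9.12 to 271.7 and 87.6, a log2 difference of 3.95 (adjusted p = 0.00585). Called lower were Krt23, at 9.22 and 8.89 against 0.0441 and 0, and Krt76, at 3.85 and 7.15 against 0.140 and 0.0496. Krt17 and Krt18 passed the filter only through the 48p-HFSC libraries, and Krt23 and Krt76 only through the 10p-HFSC libraries. The filter thus fixed the direction of these calls. Krt6a, which can pair with Krt16 and Krt17, had 193 and 202 after 10 passages, against 643 and 217 after 48, and was not called (adjusted p = 0.283). The keratins that replace Krt5 and Krt14 in differentiating epidermis were not seen, with Krt1 and Krt10 listed at 0 in all libraries. The 3 basal keratins together made up 84.0% and 82.3% of all keratin FPKM after 10 passages, against 57.5% and 50.1% after 48.

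**Figure D4:**
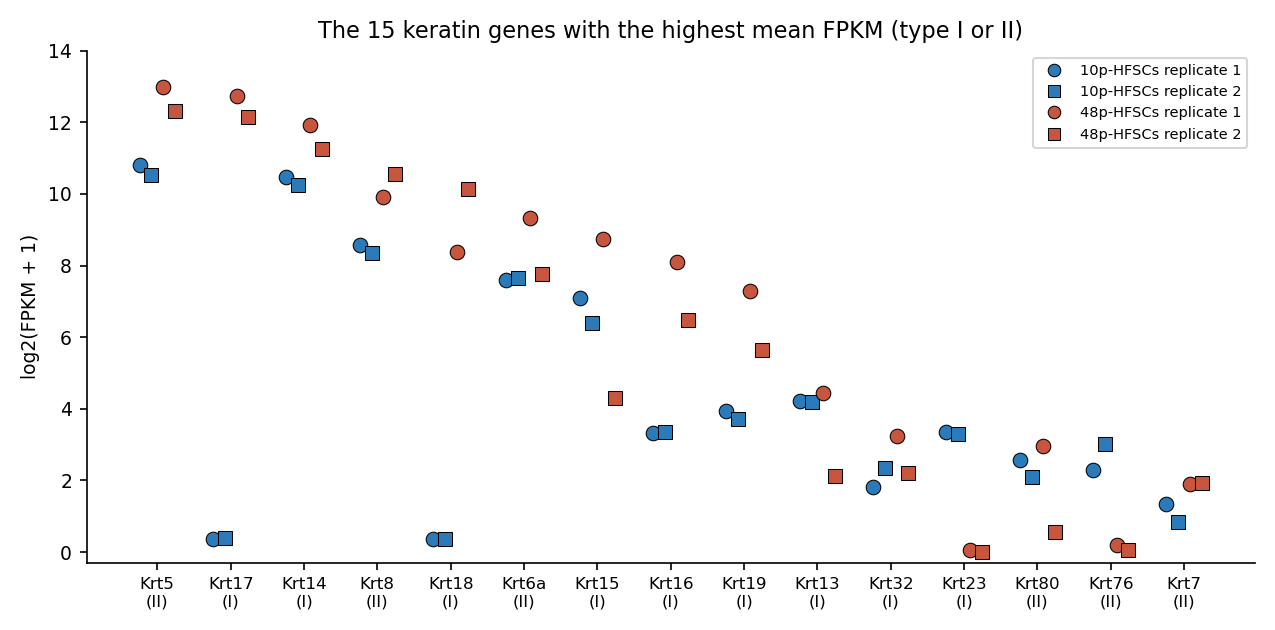
log2(FPKM + 1) of the 15 keratin genes with the highest mean FPKM, ordered from left to right, with the type in brackets. Circles are replicate 1 and squares replicate 2. Krt5, Krt14 and Krt8 are high at both passages, Krt17 and Krt18 in 48p-HFSCs, and the 48p-HFSC libraries stand apart most for Krt15.

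The genes sit in clusters of type I keratins on chromosome 11 and of type II keratins on chromosome 15, and neighbours did not share a level. Krt15 lies between Krt13, a keratin of non-cornified epithelia, and Krt19. Krt13 had an FPKM of 17.5 and 17.3 after 10 passages, against 20.6 and 3.39 after 48, so that replicate 2 was the lower one as for Krt15. Krt19 was likewise lower in replicate 2, but above the 10p-HFSC libraries in both. Krt14 lies between Krt9, listed at 0 in all libraries, and Krt16. Krt5 lies between Krt6a and Krt71, a keratin of the inner root sheath, which was at 1.38 or less. Away from the keratins, the median log2 difference was 0.28 over 411 tested genes of chromosome 15, 0.08 over 910 of chromosome 11 and -0.03 over 10595 genes with a position. The part of a shift of chromosome 15 in the values of Krt5 was not tested.

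Regulators of epidermal gene expression were taken from a list of 27 genes, of which 22 were tested, 6 were called higher and 1 was called lower. Their median log2 difference was 0.49, against -0.03 over all tested genes, of which 10.8% were called higher and 9.15% lower. Of the 22, 11 had both 48p-HFSC libraries above both 10p-HFSC libraries and 5 had both below, against 31.7% and 34.3% of all tested genes. After rescaling to TPM 1 was called higher and 1 lower, and without replicate 1 or replicate 2 of 10p-HFSCs 0 were called. Trp63, the p63 transcription factor that maintains basal keratinocytes and acts on Krt5 and Krt14, had an FPKM of 60.4 and 42.0 after 10 passages, against 123.8 and 52.7 after 48 (log2 difference 0.67, standard error 0.46, limma adjusted p = 0.327). Its groups overlapped, and replicate 1 was the higher one in both, as for the 3 keratins. Tfap2a, another activator of basal keratin genes, had 17.0 and 20.5 against 23.6 and 34.4 and was not called (adjusted p = 0.199). Among the genes called higher were factors of epidermal differentiation. Zfp750 rose from 1.09 and 0.651 to 12.8 and 6.44, Ehf from 0.0351 and 0 to 5.64 and 3.30, and Ovol1 from 0.997 and 0.835 to 8.31 and 6.95. Grhl3 and Klf4 were called higher as well, Klf4 with a log2 difference of 1.48. Elf3 and Cebpb of the same list were lower without overlap, with log2 differences of -0.75 and -0.76. They were not called (limma adjusted p = 0.0939 and 0.147). Ovol2, which keeps cells epithelial, fell from 4.01 and 4.45 to 0 and 0.207. It passed the filter only through the 10p-HFSC libraries. Zfp750, Ehf, Ovol1 and Grhl3 needed the 48p-HFSC libraries to pass it.

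Genes that attach basal cells to the basement membrane numbered 16, all of them tested, of which 6 were called higher and 0 lower, with a median log2 difference of 0.45. Over all tested genes 10.8% were called higher and 9.15% lower, with a median of -0.03. Of the 16, 8 were higher without overlap and 4 lower, against 31.7% and 34.3% of all tested genes. The 4 were Fermt1 (log2 difference -1.26), Col4a1 (-0.95), Itgb1 (-0.91) and Col4a2 (-0.71), none of them called. After quantile normalization 4 were called higher and 2 lower, and with the replicate block 6 higher and 1 lower. Without replicate 2 of 48p-HFSCs 3 were called higher, after rescaling to TPM 1 was called higher and 1 lower, and without replicate 1 or replicate 2 of 10p-HFSCs 0 were called. Itga6, the α6 integrin to which hemidesmosomes link keratin filaments, rose from 31.4 and 20.8 to at least 79.0 in both 48p-HFSC libraries (log2 difference 1.77, limma adjusted p = 0.0143). Lamb3, which encodes a laminin chain, had a log2 difference of 1.84. Itgb4 (1.01), Lama5 (1.22) and the anchoring fibril collagen Col7a1 (1.54) were called higher as well. Plec, the plectin that binds keratin filaments to the hemidesmosome, was at 18.2 to 21.3 in the 4 libraries. Itgb1, the β1 integrin of basal cells, had 281 and 206 after 10 passages, against 108 and 151 after 48, and was not called (limma adjusted p = 0.120).

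Bulge markers other than Krt15 numbered 16, of which 7 were tested, 1 was called higher and 3 lower, with a median log2 difference of -0.95. Over all tested genes the median was -0.03, with 10.8% called higher and 9.15% lower. Sox9, a transcription factor needed for follicle stem cells, fell from 45.6 and 44.2 to 20.2 and 8.31 (log2 difference -1.71, limma adjusted p = 0.0389). By qRT-PCR the paper instead reported significant increases of Sox9 and Lhx2 in 48p-HFSCs. The reason for this difference was not tested. In the RNA-seq values Runx1 and Lrig1 were lower as well, with log2 differences of -1.13 and -1.12. The gene called higher was Itga6, which is also counted among the attachment genes. The list was thus not limited to genes particular to the bulge. Without replicate 2 of 48p-HFSCs, after rescaling to TPM and after the correction for length and GC content, with or without the replicate block, 1 was called lower, and without a filter on low values or without either library of 10p-HFSCs 0 were. Genes of epidermal differentiation, early and late, numbered 15 listed, of which 7 were tested. Of these 3 were called higher and 0 lower, with a median log2 difference of 1.59, beside the same 10.8% and 9.15% of all tested genes. With a pseudocount of 0.1, after rescaling to TPM and after quantile normalization 1 was called lower. The 4 not called were Ivl, Dmkn and Krtdap (1.90, 0.18 and -0.15) and Notch3 (-0.996, limma adjusted p = 0.0388), just short of the log2 threshold. Lor was listed at 0 in all libraries. Of those called, Tgm1 passed the filter only through the 48p-HFSC libraries. Calm4, a calcium-binding protein of keratinocytes, rose from 3.16 and 3.64 to 114.3 and 53.7, Tgm1, the transglutaminase of the cornified envelope, from 0.0369 and 0.0268 to 6.57 and 11.1, and Sbsn, a secreted protein of the upper epidermis, from 94.6 and 104.3 to 234.4 and 386.7. Without either library of 10p-HFSCs 0 of them were called.

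Markers of other cells were read beside these results. The 9 fibroblast genes summed to 353 and 388 after 10 passages, against 2.53 and 3.32 after 48. Nearly all of this was Vim and Col1a2, while Dcn, Lum and Thy1 were listed at 0 in all libraries and Pdgfra was at 0.284 or less. The 8 melanocyte genes summed to 1.503 and 1.426 after 10 passages, against 4.06 and 11.9 after 48, with Dct, Kit and Sox10 listed at 0. The 5 endothelial genes summed to 2.61 and 2.34 against 1.37 and 0.292, with Cdh5 and Kdr at 0.0156 or less. The 5 leukocyte genes summed to 0.641 and 0.694 after 10 passages, against 64.3 and 104.2 after 48, of which Cd74 made up 61.2 and 102.2, with Cd3e and Tyrobp listed at 0. The 5 Merkel cell genes summed to 21.8 and 22.5 after 10 passages, against 7.19 and 5.05 after 48, with Atoh1 listed at 0 and Krt20 at 0.0341 or less. Of these Sox2 was called lower, at 14.3 and 13.8 against 0 and 0, and it passed the filter only through 10p-HFSCs. The part of these genes in the levels of Krt5, Krt14 and Krt15 was not tested.

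The genes with the most similar profiles were found by the root mean square distance between log2(FPKM + 1) values centred on each gene's mean, over the 4 libraries. For Krt5 they were Wfs1 (distance 0.068), Arhgef3 (0.069) and Tns1 (0.076), and for Krt14 they were Synj2 (0.056), Cyp4f17 (0.062) and Prmt2 (0.079). All 6 were far less abundant than the keratins, with an FPKM of 20.5 or less in every library. The added 1 shrinks differences at low FPKM, so that the likeness holds on this scale only. In mean FPKM Wfs1, Arhgef3 and Tns1 were 4.89-fold, 4.45-fold and 7.30-fold higher in 48p-HFSCs, against 4.05-fold for Krt5. Synj2, Cyp4f17 and Prmt2 were 3.85-fold, 4.29-fold and 2.53-fold higher, against 2.40-fold for Krt14. The closest to Krt15 were 9130409J20Rik (0.20), Irgm1 (0.48) and Angptl2 (0.58). Their distances were larger than those found for Krt5 and Krt14, and all 3 were highest in replicate 1 and lowest in replicate 2 of 48p-HFSCs. With 4 libraries, such likeness is a description of these values.

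**Figure D5:**
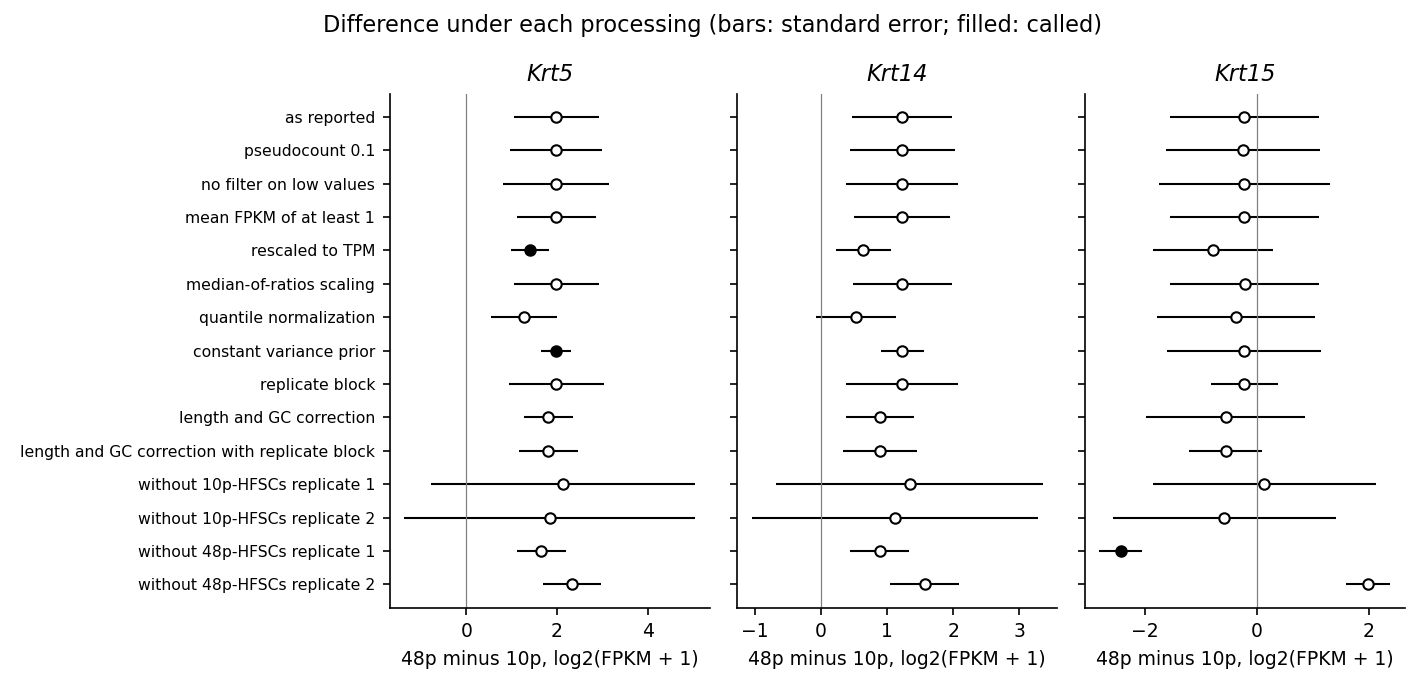
Difference between 48p- and 10p-HFSCs on the log2(FPKM + 1) scale for each gene under each processing, with standard errors from limma. Filled points were called. Krt5 and Krt14 stay above 0 in all of them, with Krt5 called after rescaling to TPM and with a constant variance prior, and the sign for Krt15 changes with the library left out, with a call without replicate 1 of 48p-HFSCs.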

How the data were processed

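Stranded mRNA libraries were sequenced as single-end reads, which the authors mapped to mm10 with TopHat2 2.1.1. The authors deposited FPKM values, 1 file per library. The submitters' processing notes list Bowtie2 2.2.8, SAMtools 0.1.18 and Cuffdiff 2.2.1, where the paper names Cufflinks and other versions of Bowtie2 and SAMtools. Which of the programs gave the deposited values, and so whether they were scaled across libraries, is not given in the sources used here. The gene annotation, strand setting and read totals are not given in the sources used here, so no counting interval could be set. Count models were not applied to FPKM.
Values were taken to log2(FPKM + 1), and the 11018 genes that reached an FPKM of 1 in 2 or more libraries were tested. The linear model of limma 3.58.1 (R 4.3.3) was fitted with its moderated variance following a trend in level, and p-values were adjusted over all tested genes by the Benjamini-Hochberg method. Ratios were compared by exact permutation tests with scipy 1.17.1. Annotation and transcript sequences came from GENCODE M21, whose assembly GRCm38 is mm10. A length and GC content were found for 96.3% of tested genes. Coding sequences were aligned without gaps by window. The fit was tested on simulated data.
The genes and lists were chosen with earlier results of these data known. Genes named are the 3 basal keratins, the 10 most abundant keratins and neighbours in the clusters, the 3 nearest profiles of each, and called list members, up to 5 per list. Tfap2a, Plec, Itgb1, Cd34, Dcn and other list members that were not called, Itgb4, Grhl3 and Klf4, and the genes with the widest gaps were named after their values were seen. Some called members of the lists are not reported here by name. Groups and replicate numbers came from the sample titles. Alternatives were a pseudocount of 0.1, other filters and scalings, a constant variance prior, the replicate block, correction for length and GC content with natural splines (4 degrees of freedom each), and leaving out each library. Added after seeing the data were the type II to type I ratio with and without Krt17 and the counts of the gene lists under each alternative.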

Additional observations from a re-analysis of the deposited data

How the results depend on the processing

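Krt5 stayed higher in 48p-HFSCs under all 14 alternatives and was called under 2 of them, after rescaling to TPM (log2 difference 1.40, adjusted p = 0.0385) and with a constant variance prior (1.99, adjusted p = 0.0162). Krt14 stayed higher under all 14 and was not called under any. Krt15 changed direction without replicate 1 of 10p-HFSCs (0.14) and without replicate 2 of 48p-HFSCs (1.99), and was called lower without replicate 1 of 48p-HFSCs (-2.43), a range of -2.43 to 1.99 over the libraries left out. The log2 ratio of Krt15 to Krt14, -1.47 with all libraries, ranged from -3.38 to 0.44, the last without replicate 2 of 48p-HFSCs. The log2 ratio of Krt5 to Krt14 ranged from 0.72 to 0.79 and was 0.92 after the length and GC correction. The log2 ratio of type II to type I keratins turned from -0.84 to 0.34 when Krt17 was left out.
Over all tested genes 2197 were called, 1189 higher and 1008 lower. Without a filter on low values 1453 were called and 637 of them were lower, and after rescaling to TPM 1440 were called, 620 higher and 820 lower. Leaving out 1 library gave 175 to 3811 calls, 35 to 1936 higher and 140 to 1875 lower, the fewest without replicate 1 of 10p-HFSCs and the most without replicate 1 of 48p-HFSCs. The 6 keratins called ranged from 3 to 11, with 2 to 5 higher and 1 to 6 lower. No list of regulators, attachment, bulge or differentiation genes had a call without either 10p-HFSC library. In each of these fits the lone library is assumed to vary like the other group.
Both groups use the replicate numbers 1 and 2, but no source ties same-numbered libraries to a batch, and with 2 pairs the correlation of their deviations across genes (0.408) does not settle the pairing. With the replicate block 3110 genes were called, 1613 higher and 1497 lower. The log2 differences of Krt5, Krt14 and Krt15 were then 1.99, 1.23 and -0.22, with adjusted p-values of 0.154, 0.272 and 0.797, and with the length and GC correction added 0.0554, 0.246 and 0.543. By the estimate from the steps between low values, replicate 2 of 48p-HFSCs was the shallowest library, and its low values would be the least precise. This holds only if the values were not scaled across libraries, which is not known.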
